A study of Mus musculus with 2 samples.

Results

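The genes described here are 10 genes of the Bcl2 family, which decide between survival and death at the mitochondrion: Bcl2, Bcl2l1, Mcl1, Bax, Bak1, Bcl2l11, Bid, Bad, Bbc3 and Pmaip1. They were chosen by name, and their levels are those of the loci that StringTie assembled from the reads of each library. Each locus went to the gene of GENCODE vM21 that had most exon bases within it on the same strand, and all 10 genes had a locus in at least 1 library, among 14777 genes that did. RNA of wild-type (WT) mouse bone marrow cells, kept in M-CSF, a growth and survival factor of macrophages, was sequenced as 1 library without RANKL (M) and 1 library with RANKL, the cytokine that induces osteoclasts (MR). The labels give 2 days with M-CSF for both libraries, then 2 days with M-CSF and RANKL for MR. The culture method describes a longer RANKL step. No further days are given for M, so that culture time and RANKL cannot be told apart if M was harvested earlier. The harvest day of each library, the age and strain of the mice and any pooling of animals are not given in the sources used here. With 1 library per condition no difference has a replicate check, and every value describes these libraries only.

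In the mitochondrial pathway of apoptosis, the effectors Bax and Bak1 open the outer membrane of the mitochondrion, and cytochrome c is released. Pro-survival proteins (Bcl2, Bcl2l1, which encodes Bcl-xL, and Mcl1) hold the effectors in check. BH3-only proteins (Bcl2l11, which encodes Bim, Bid, Bad, Bbc3, which encodes Puma, and Pmaip1, which encodes Noxa) bind the pro-survival proteins in a groove through their BH3 helix, and some of them also activate the effectors. Macrophages and osteoclasts depend on M-CSF for survival, and Bim and Bcl-xL are known from osteoclast work as regulators of how long the cells live.

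The short stretch that codes for the BH3 core is what these genes share in sequence, and it is shown here for that reason. Each line gives the coding strand, 5′ to 3′, read from the GENCODE vM21 transcript on GRCm38, with the core in capitals: 6 codons for leucine, any 3 residues, glycine, alanine or serine, and aspartate. Translating the 9 transcripts printed gave exactly 1 such match in each.
Bcl2: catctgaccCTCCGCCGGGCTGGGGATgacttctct
Bcl2l1: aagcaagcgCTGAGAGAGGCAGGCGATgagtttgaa
Mcl1: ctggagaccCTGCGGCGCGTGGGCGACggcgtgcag
Bax: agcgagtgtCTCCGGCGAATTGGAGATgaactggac
Bak1: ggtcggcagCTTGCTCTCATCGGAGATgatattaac
Bcl2l11: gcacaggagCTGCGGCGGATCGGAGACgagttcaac
Bid: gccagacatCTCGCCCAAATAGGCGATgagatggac
Bad: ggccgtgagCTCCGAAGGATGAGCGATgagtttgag
Bbc3: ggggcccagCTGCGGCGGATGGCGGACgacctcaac

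These stretches lie at chr1:106712575-106712610 for Bcl2 (minus strand, exon 1 of 2) and chr2:152829697-152829732 for Bcl2l1 (minus strand, exon 2 of 3). That of Mcl1 is at chr3:95659427-95659462 (plus strand, exon 1 of 3). Among the effectors, the stretch of Bax is at chr7:45465997-45466032 (minus strand, exon 3 of 6) and that of Bak1 at chr17:27022531-27022566 (minus strand, exon 4 of 6). Among the BH3-only genes, it is at chr2:128147141-128147176 for Bcl2l11 (plus strand, exon 3 of 4) and chr6:120897289-120897324 for Bid (minus strand, exon 4 of 6). The stretches of Bad, at chr19:6950783-6950818, and Bbc3, at chr7:16313764-16313799, are on the plus strand and in exon 3 of 4. The annotated Pmaip1 transcript holds 2 matches, in exons 2 and 3, and is not printed. In the 9 printed stretches the residue before the aspartate is glycine in Bcl2, Bcl2l1, Mcl1, Bax, Bak1, Bcl2l11 and Bid, serine in Bad and alanine in Bbc3.

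The deposited tables hold about 3.63 Gb of aligned bases in M and 2.98 Gb in MR, as read from the ratio of coverage to FPKM. TPM, an abundance scaled so that the assembled loci of a library have a fixed sum, is a level per transcript length, so that levels of different genes can be set side by side. Differences are log2 ratios of MR to M after 1 was added to each TPM, which understates those of low genes. Read counts are not listed. The 95% intervals below come from approximate numbers of read pairs derived from FPKM and the length of the shortest coding transcript. Where the assembled transcripts were longer, these numbers are too low and the intervals too wide. They cover counting error only, not the spread between cultures.

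Of the 10 genes, 4 were above a log2 ratio of 1 (Pmaip1, Bcl2l11, Bcl2 and Bad) and 2 were below -1 (Bcl2l1 and Bid). Over the 13449 genes that shared no locus and reached a TPM of 1 in either library, 21.3% were above 1 and 13.2% were below -1, and at a TPM of 10 the shares were 18.4% and 11.3%. The median of the 10 genes was -0.15, beside 0.21 over all these genes. Bcl2 counts among the 4 through a TPM of 1.14 in MR against no locus in M, and without it 3 of 9 genes were above 1 and the median was -0.36. The family therefore had no common direction. The lowest ratio was that of a pro-survival gene (Bcl2l1), but the next lowest and the highest were those of BH3-only genes (Bid and Pmaip1). The pro-survival and the BH3-only genes each had members on both sides.

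**Figure D1:**
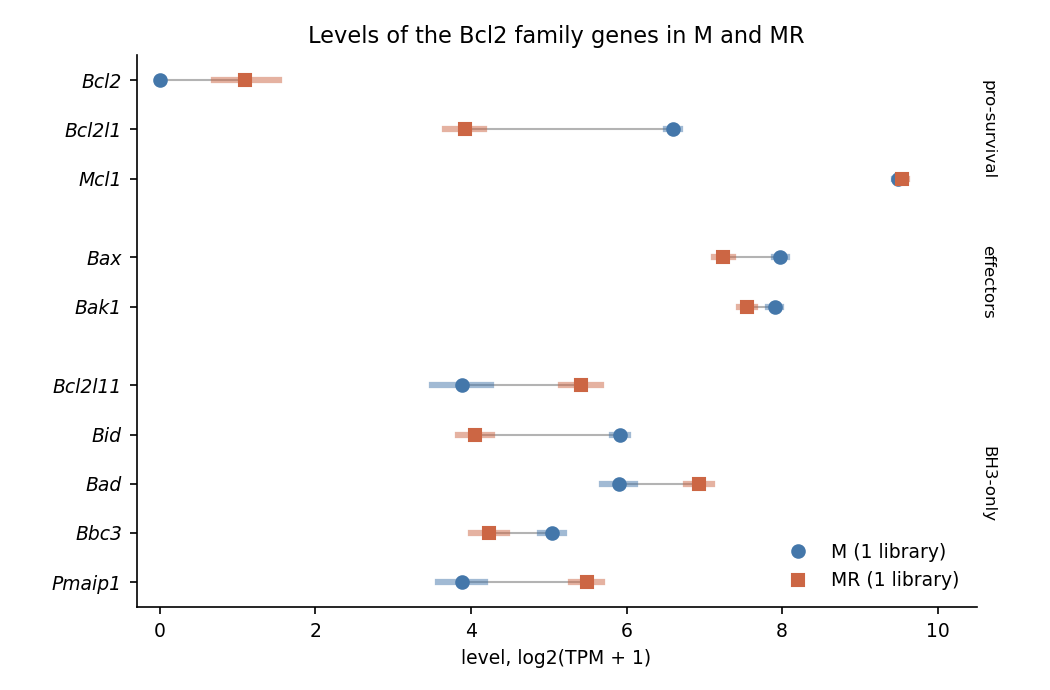
Level of each gene as log2(TPM + 1) in M (blue circles) and MR (orange squares), 1 library each, with bars for the 95% counting interval. Mcl1 was the highest in both, at 719 TPM in M and 748 TPM in MR, and Bcl2l1 lay at 96.0 TPM in M and 14.2 TPM in MR. Bcl2l11 and Pmaip1 lay near 14 TPM in M and above 40 TPM in MR. Of the Mcl1 level in MR, 40.3% came from a strandless locus at the 3′ end that had no counterpart in M. This sum can count a transcript in both loci.

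Among the pro-survival genes, the level of Bcl2l1 was far lower in MR. Its locus spanned the annotated gene (chr2:152780668-152831728, minus strand) in both libraries and held 99.3% of its exon bases in each. Bcl2l1 was at 96.0 TPM in M (interval 90.1 to 102) and 14.2 TPM in MR (11.7 to 17.0), from about 1002 and 117 read pairs. The intervals were far apart, and the level in MR was 6.78-fold lower. The log2 ratio was -2.68 (-2.94 to -2.42), and 1.59% of all genes tested had a lower one. It stayed between -2.85 and -2.44 in 9 alternatives of scaling, unit and assignment of the assembled loci. The alternatives of assignment left the ratios of Bcl2l1, Bak1, Bid, Bad, Bbc3 and Pmaip1 unchanged, so that only the others could move these genes. With the table entries that carry gene names, whose positions are of another genome build, the ratio of Bcl2l1 was 0.027. Those entries are left out of the counts of alternatives here and below.

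Mcl1, a short-lived protein on which many myeloid cells depend, had the highest level of the family in both libraries. It was at 719 TPM in M (695 to 744) and 748 TPM in MR (720 to 776), and the log2 ratio was 0.06 (-0.02 to 0.13). This near-equal sum rests on different loci in the libraries. The stranded locus, whose 3′ end differed by 1 base between the libraries, was at 719 TPM in M and 446 TPM in MR, a log2 ratio of -0.69. In MR a further locus with no strand lay 783 bases beyond it, at chr3:95662417-95663178, over 760 exon bases at the 3′ end of the annotated gene. It added 301 TPM, 40.3% of the level in MR, and no such locus was assembled in M. TPM is a level per length, so that adding separate loci of a gene can count the same transcript in both. The 748 TPM and the ratio of 0.06 may thus be too high. Whether the level of Mcl1 differed between the cultures therefore depends on how these 3′ end reads are counted, and the sign was the same in 4 of 9 alternatives.

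Bcl2, the founding pro-survival gene of the family, was the lowest of the 10 genes in both libraries. In M no assembled locus held any of its exon bases, although loci of 5.95 TPM (plus strand) and 0.0413 TPM (minus strand) lay inside its introns. In MR a locus on the minus strand ran through most of the gene (chr1:106543286-106713193) and covered 32.4% of the exon bases. Its level was 1.14 TPM (0.626 to 1.90), from about 14 read pairs at a coverage of 1.51. No fold is given against a library without a locus, and the lowest level that would have been assembled is not given in the sources used here.

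The effectors Bax and Bak1 were both abundant and both somewhat lower in MR. Bax (chr7:45461697-45466898, minus strand) was at 251 TPM in M (237 to 266) and 151 TPM in MR (138 to 164), 1.67-fold lower, with a log2 ratio of -0.73 (-0.88 to -0.59). Bak1 (chr17:27019810-27029009, minus strand) was at 239 TPM in M (225 to 252) and 186 TPM in MR (173 to 200), 1.28-fold lower, with a log2 ratio of -0.36 (-0.49 to -0.22). For neither gene did the counting intervals of the libraries overlap, but neither passed a log2 ratio of -1 in any of 9 alternatives. In M the intervals of Bax and Bak1 overlapped each other, whereas in MR Bak1 was above Bax. The ratio of Bax to Bak1 was 1.05 in M and 0.809 in MR. In MR a locus of 8.05 TPM given to Ggnbp1 on the opposite strand ran over 1427 exon bases of Bak1, and none did in M. Whether the library kept strand is not stated, so that reads of the overlapping genes cannot be told apart for certain.

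**Figure D2:**
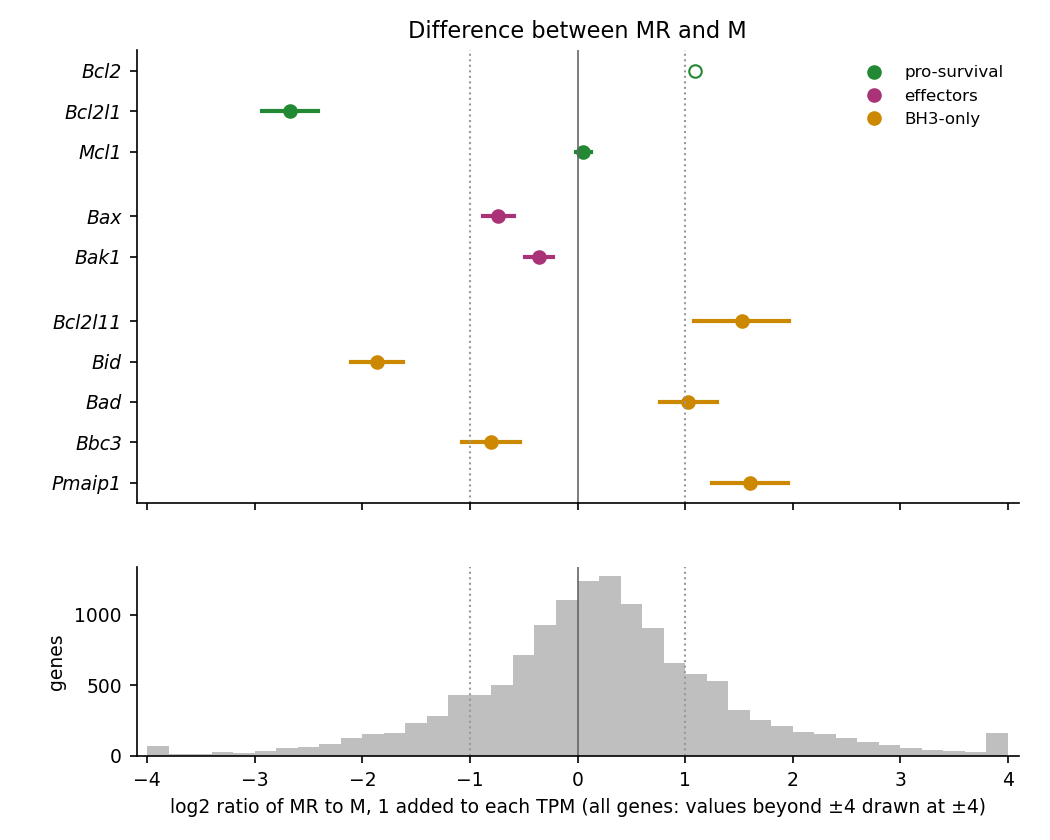
Upper panel, log2 ratio of MR to M for each gene with its 95% counting interval (open circle, Bcl2, no locus in M and hence no interval); lower panel, number of all 13449 tested genes per ratio, with dotted lines at -1 and 1. Bcl2l1 at -2.68 and Bid at -1.87 lie in the lower tail of all genes. Bcl2l11 at 1.53 and Pmaip1 at 1.61 lie above the dotted line, as do Bcl2 and Bad by a small margin. The values of Bad and Bcl2 fall below the line in some alternatives. That of Bcl2l11 falls to 0.65 when the minus-strand loci at its 3′ end are counted.

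The 5 BH3-only genes were split. Bcl2l11, Bad and Pmaip1 were higher in MR, and Bid and Bbc3 were lower.

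Pmaip1, whose product Noxa binds Mcl1 above all, lies at chr18:66458533-66465565 on the plus strand. Its level was 13.8 TPM in M (10.9 to 17.2) and 43.9 TPM in MR (38.0 to 50.5), 3.19-fold higher, from about 78 and 196 read pairs. The log2 ratio was 1.61 (1.25 to 1.96). One locus in each library held 97.0% of the exon bases in M and 95.9% in MR, so that like was compared with like, and the ratio was above 1 in 9 of 9 alternatives (1.43 to 1.67).

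Bcl2l11, whose product Bim binds every pro-survival protein of the family, was likewise higher in MR. The gene lies at chr2:128126038-128162547 on the plus strand. It was at 13.8 TPM in M (10.3 to 18.1) and 41.8 TPM in MR (34.8 to 49.8), 3.02-fold higher, from about 52 and 124 read pairs, and the log2 ratio was 1.53 (1.09 to 1.97). The libraries differed in where the locus began. In MR it began 22 bases inside the annotated 5′ end, whereas in M it began 116693 bases upstream and also held 1499 exon bases of the neighbouring gene Acoxl, 47.2% of them. Adding the separate Acoxl locus of MR (1.97 TPM) to Bcl2l11 gave a log2 ratio of 1.59. A second limit lies at the 3′ end, where both plus-strand loci stopped about 4 kb before the annotated end (3943 bases in M and 3979 in MR). Loci on the minus strand, at 37.7 TPM in M and 39.9 TPM in MR, covered 4308 and 4306 exon bases there and were given to no gene. If these were counted to Bcl2l11, the log2 ratio was 0.65, still higher in MR but below 1. As at Mcl1, such a sum can count a transcript in both loci.

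**Figure D3:**
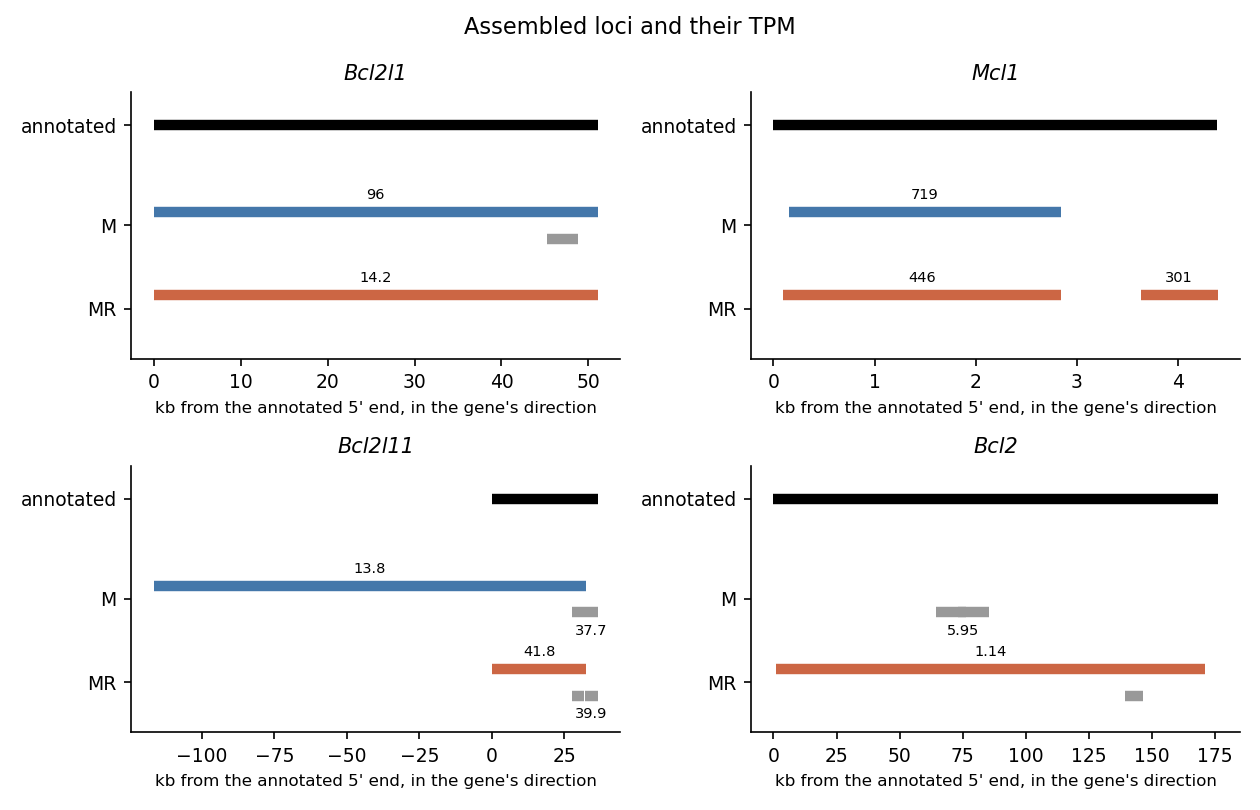
Extent of the assembled loci at Bcl2l1, Mcl1, Bcl2l11 and Bcl2, in kb from the annotated 5′ end in the direction of the gene (black, annotated gene; blue, loci given to the gene in M; orange, in MR; grey, other loci in the gene on either strand), with TPM written beside loci of at least 1 TPM. Bcl2l1 was assembled over the same extent in both libraries, Mcl1 had a further locus of 301 TPM in MR alone, the Bcl2l11 locus of M began far upstream of the gene, and Bcl2 had a locus with exon bases in MR alone.

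Bad, a BH3-only protein that growth factor signalling keeps inactive by phosphorylation, was at 58.7 TPM in M (50.4 to 68.0) and 121 TPM in MR (107 to 136). It was 2.06-fold higher in MR, from about 178 and 289 read pairs, and the log2 ratio was 1.03 (0.76 to 1.30). This value lies at the threshold: it was higher in MR in 9 of 9 alternatives, but above 1 in 5 of them, and 0.69 with coverage per aligned Gb. The gene lies at chr19:6941861-6951899 on the plus strand, and its loci held 90.3% of the exon bases in M and 94.3% in MR.

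Bid, which caspase-8 cleaves to link death receptors to the mitochondrion, had the second-lowest ratio of the family. The gene lies at chr6:120891930-120916853 on the minus strand. It was at 59.6 TPM in M (55.3 to 64.0) and 15.6 TPM in MR (13.2 to 18.3), 3.81-fold lower, from about 730 and 151 read pairs, and the log2 ratio was -1.87 (-2.10 to -1.63). Only 4.65% of all genes tested had a lower ratio, and the value stayed below -1 in 9 of 9 alternatives. Just past its 3′ end a locus of 2.84 TPM in M and 7.71 TPM in MR, with 25 exon bases of Bid, was given to no gene.

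Bbc3, a p53 target whose product Puma binds all pro-survival proteins of the family, was at 31.9 TPM in M (28.5 to 35.6) and 17.9 TPM in MR (15.0 to 21.0). It was 1.79-fold lower in MR, and the log2 ratio was -0.80 (-1.07 to -0.53). With coverage per aligned Gb in place of TPM the difference was all but gone, at -0.05. The gene lies at chr7:16308393-16318205 on the plus strand. In MR a minus-strand locus of 64.3 TPM given to Ccdc9 ran over 685 of its exon bases, and no such locus did so in M.

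In M the order of the levels was Mcl1, Bax, Bak1, Bcl2l1, Bid, Bad, Bbc3, Bcl2l11, Pmaip1 and Bcl2. Neighbours in this order had separate counting intervals except Bax and Bak1, Bid and Bad, and Bcl2l11 and Pmaip1. In MR the order was Mcl1, Bak1, Bax, Bad, Pmaip1, Bcl2l11, Bbc3, Bid, Bcl2l1 and Bcl2. Here the intervals of Pmaip1 and Bcl2l11 overlapped, as did those of Bbc3 and Bid and of Bid and Bcl2l1. Bcl2l1 thus moved from rank 4 to rank 9, level with the lowest BH3-only genes.

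Summed by class, the pro-survival genes were at 815 TPM in M and 763 TPM in MR, which was 55.0% and 56.9% of the sum over the 10 genes. The effectors were at 490 TPM and 337 TPM (33.0% and 25.1%), and the BH3-only genes at 178 TPM and 240 TPM (12.0% and 17.9%). Of the 763 TPM in MR, 301 TPM came from the strandless Mcl1 locus, and the shares in MR depend on it. Without that locus the pro-survival share would be lower in MR than in M. The effector share would then be close to that in M, and the BH3-only share still higher in MR. The makeup of the pro-survival and BH3-only sums also differed. Mcl1 was 88.2% of the pro-survival sum in M and 98.0% in MR, and Bcl2l1 was 11.8% and 1.86%. Within the BH3-only sum, Bid was 33.5% in M and 6.50% in MR, whereas Bad was 33.0% and 50.4%. Bcl2l11 was 7.77% of this sum in M and 17.4% in MR, and Pmaip1 was 7.74% and 18.3%. For the pairs known to bind each other, the ratio of Bcl2l11 to Bcl2l1 was 0.144 in M and 2.95 in MR, and that of Bad to Bcl2l1 was 0.612 and 8.55. The ratio of Pmaip1 to Mcl1 was 0.0191 in M and 0.0588 in MR, so that Mcl1 RNA remained far above Pmaip1 RNA in both. The MR ratio uses the Mcl1 sum with the strandless locus. With the stranded Mcl1 locus alone (446 TPM in MR) it would be higher. Adding the minus-strand loci at its 3′ end to Bcl2l11 can count a transcript in both loci. With them it was 23.9% of the BH3-only sum in M and 29.2% in MR. Its ratio to Bcl2l1 was then 0.537 and 5.77. These are ratios of RNA levels, and protein was not measured in these libraries.

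**Figure D4:**
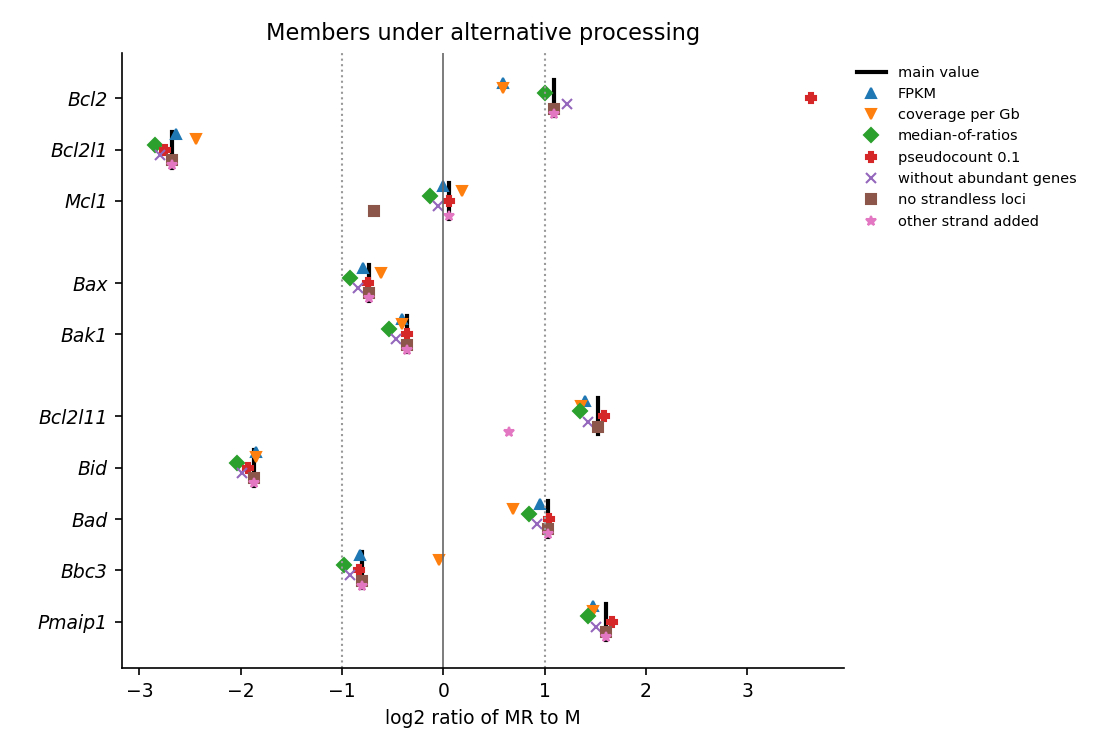
Log2 ratio of MR to M for each gene (black bar, value as reported) under 7 ways of processing the same loci, with dotted lines at -1 and 1. Bcl2l1, Bid and Pmaip1 stayed on their side of the lines, whereas Mcl1 without strandless loci (-0.69), Bcl2l11 with the other strand added (0.65) and Bbc3 with coverage (-0.05) stood apart from their other values, and Bcl2 ranged from 0.59 to 3.63.

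Promoters from RefSeq (GRCm38.p6), each from 250 bases before to 50 after a start, were searched on both strands for 5 motifs. The table held 15 promoters of 9 of the 10 genes. The forkhead motif TGTTTAC occurred in 1 of 2 promoters of Bcl2l11 and in 1 of 3 promoters of Bbc3, and 3.65% of all 32851 promoters hold it. Both windows are printed because they are the forkhead matches in the family, with the motif in capitals, on the plus strand. The Bcl2l11 motif, which is on the minus strand and so reads GTAAACA, lies 227 bases before the start at chr2:128125800-128125828, and the Bbc3 motif lies 167 bases before another start at chr7:16310083-16310111.
Bcl2l11: aagacactaggGTAAACAcgccggggtgg
Bbc3: tctggcgggttTGTTTACaaacaatgggg

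The E-box CACGTG, which 7.15% of promoters hold, occurred once in a further promoter of Bbc3 and at 2 places in that of Bax. No promoter of the family held the AP-1 motif TGACTCA (5.20% of all promoters), the NFAT core TGGAAA (21.4%) or the MITF M-box TCATGTG (3.77%), and no match overlapped another motif. The 2 genes with a forkhead motif had ratios of opposite sign, 1.53 for Bcl2l11 and -0.80 for Bbc3. A match is a description of letters in these windows, and their absence says nothing of sites elsewhere.

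The other apoptosis genes were read from 6 lists with 77 genes, of which 73 had a TPM of at least 1 in a library. Of these, 18 were above a log2 ratio of 1 and 9 below -1, close to the shares of 21.3% and 13.2% over all genes. The median was 0.10, beside 0.21 over all genes. For the counts below, 2403 of all 13380 genes were above 1 and 2104 below -1 under median-of-ratios scaling. With coverage per aligned Gb these were 2106 and 1359 of 12083.

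Of the other Bcl2 family genes, 5 of 12 were above 1 and 2 were below -1, against 4 and 3 under median-of-ratios scaling and 3 and 1 with coverage per aligned Gb. Bmf, a BH3-only gene, was at 4.61 TPM in M and 20.3 TPM in MR (log2 ratio 1.92). The pro-survival gene Bcl2l2, which encodes Bcl-w, was at 8.56 TPM and 39.8 TPM (2.09), but with coverage per aligned Gb the sign turned (-0.24). Bcl2a1a, a pro-survival gene with near-identical copies, was at 4.16 TPM and 11.2 TPM (1.24), while its copies Bcl2a1b (23.1 and 25.7 TPM) and Bcl2a1d (9.49 and 12.2 TPM) were closer to even. Reads can be split among these copies, and Bcl2a1b shared its locus with another gene, so that single copies are uncertain. Bnip3, a BH3-like gene of mitophagy, was at 17.5 TPM and 38.3 TPM (1.08), but at 0.91 under median-of-ratios scaling and above 1 in 5 of 9 alternatives. The effector relative Bok had no locus in M and 2.81 TPM in MR, whereas Bik (2.61 TPM) and Bcl2l14 (1.25 TPM) had a locus in M alone, and with coverage per aligned Gb Bcl2l14 was at -0.25.

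Downstream of the mitochondrion, 6 of 13 genes were above 1, none was below -1, and the median was 0.65. Under median-of-ratios scaling 5 were above 1 and 2 below -1, and with coverage per aligned Gb 6 and 1. All 6 encode either proteins of the mitochondrion or a caspase. Cycs, which encodes cytochrome c, was at 214 TPM in M and 468 TPM in MR (log2 ratio 1.13). Endog, a mitochondrial nuclease, was at 9.55 TPM and 44.1 TPM (2.10), and Aifm1, the apoptosis-inducing factor with a role in respiration, was at 16.6 TPM and 58.1 TPM (1.74). Diablo was at 12.5 TPM and 38.0 TPM (1.53) and Htra2 at 71.5 TPM and 178 TPM (1.30), and both encode mitochondrial proteins that bind inhibitors of caspases once released. Casp6, an executioner caspase, was at 12.4 TPM and 30.4 TPM (1.24). The genes that act on released cytochrome c lay the other way or near 0: Apaf1, the scaffold of the apoptosome, was at 31.9 TPM and 16.3 TPM (-0.93), and Casp9, its initiator caspase, was at 29.1 TPM and 27.8 TPM (-0.06). Under median-of-ratios scaling Apaf1 was at -1.10 and Cycs at 0.94. Casp8 lay inside the locus of another gene and had no value.

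Among inhibitors of caspases, Birc2 (15.3 and 33.5 TPM, log2 ratio 1.08) and Birc3 (26.0 and 56.8 TPM, 1.10), both ubiquitin ligases of TNF receptor signalling, were the 2 of 6 above 1, and none was below -1. Under median-of-ratios scaling they were at 0.91 and 0.92, so that no gene of the list was above 1 and 1 was below -1. Xiap was at 21.9 TPM in M and 29.2 TPM in MR (0.40), and Cflar, which encodes the caspase-8 inhibitor c-FLIP, was at 85.8 TPM and 44.8 TPM (-0.92), and at -1.10 under that scaling. Of the death receptor genes, none of 7 was above 1, and Tnfsf10, which encodes the ligand TRAIL, was the 1 below -1, at 15.4 TPM and 4.63 TPM (-1.54).

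Of 21 regulators of the family, 2 were above 1 and 2 below -1, or 3 below -1 under median-of-ratios scaling. Rcan1, a calcineurin inhibitor, was at 21.1 TPM in M and 103 TPM in MR (log2 ratio 2.24), and Trim17, a ubiquitin ligase, had no locus in M and 3.02 TPM in MR. The kinase Pim1, which phosphorylates Bad, was at 39.0 TPM and 11.5 TPM (-1.67), and Ddit3, which encodes the stress factor CHOP, was at 231 TPM and 101 TPM (-1.18) over a locus shared with another gene. Trp53 was at 51.9 TPM and 83.1 TPM (0.67). Foxo3, a forkhead factor known to act on Bcl2l11 and Bbc3, was at 18.9 TPM and 15.9 TPM (-0.24), and Cbl, a ubiquitin ligase known to act on Bim in osteoclasts, was at 39.9 TPM and 24.0 TPM (-0.71).

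Genes that p53 induces had no common direction, with 3 of 14 above 1, 4 below -1 and a median of -0.24. The counts were 2 and 4 under median-of-ratios scaling and 2 and 2 with coverage per aligned Gb. Cdkn1a, the cell cycle inhibitor p21, was at 437 TPM in M and 167 TPM in MR (log2 ratio -1.39), Sesn1 at 61.9 TPM and 26.9 TPM (-1.18), and Phlda3 at 28.0 TPM and 13.3 TPM (-1.02). Eda2r, at 1.27 TPM, had a locus in M alone. Perp had no locus in M and 12.4 TPM in MR, Trp53inp1 was at 20.5 TPM and 47.1 TPM (1.16), and Ddit4 was at 1.21 TPM and 4.12 TPM (1.21). Trp53inp1 was at 0.99 under median-of-ratios scaling, and with coverage per aligned Gb Ddit4 was at 0.36, Phlda3 at -0.79 and Eda2r at -0.67. The members that are p53 targets were also on both sides, with Pmaip1 at 1.61, Bax at -0.73 and Bbc3 at -0.80.

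**Figure D5:**
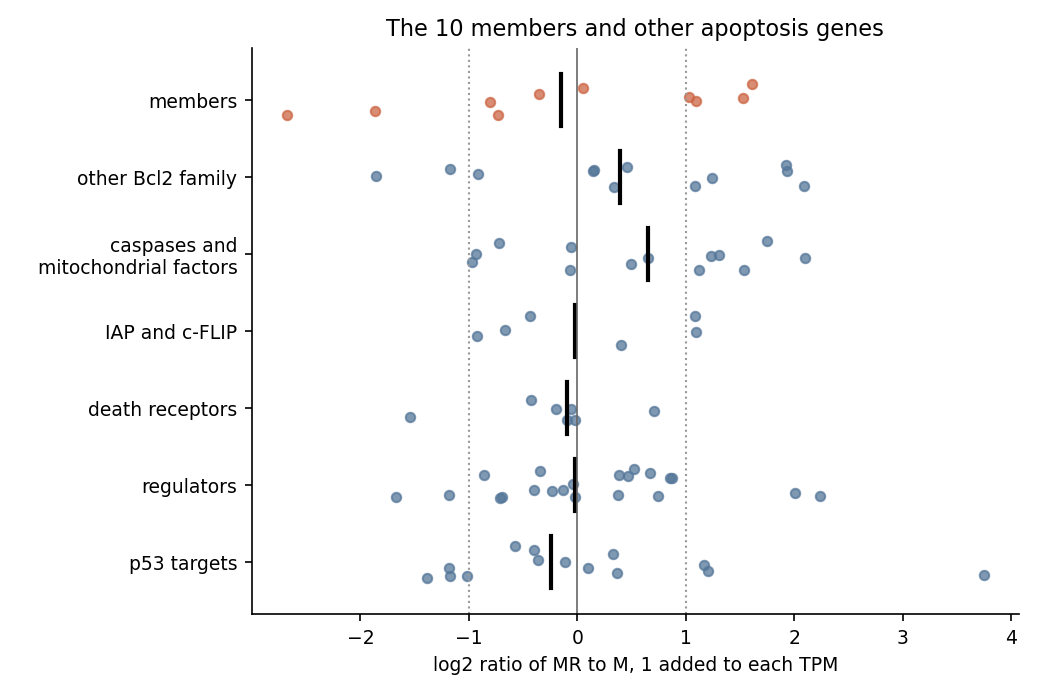
Log2 ratio of MR to M for the 10 genes (orange) and for the genes of 6 other apoptosis lists (blue), 1 point per gene with a TPM of at least 1 in a library, with black bars for the medians and dotted lines at -1 and 1. The caspase and mitochondrial factor list has the highest median, 0.65, with 6 of 13 genes above 1 and none below -1 (5 and 2 under median-of-ratios scaling), and the 10 genes span from -2.68 to 1.61 around a median of -0.15.

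The libraries matched their labels in cell type markers. All 10 osteoclast markers were above a log2 ratio of 1, with a summed level of 152 TPM in M and 25318 TPM in MR, and Calcr, Oscar, Dcstamp and Ocstamp had no locus in M. Of 8 macrophage markers, 4 (Adgre1, Lyz2, Mrc1 and Mertk) were below -1. The others were between -1 and 1, with Csf1r (0.32) and Cx3cr1 (0.49) above 0 and Cd68 (-0.26) and Itgam (-0.34) below 0. The list summed to 20350 TPM in M and 7892 TPM in MR. Most of this was Lyz2 (16035 and 4535 TPM), over a locus shared with another gene. Both libraries also held neutrophil markers, at 1379 TPM in M and 963 TPM in MR, with all 9 between -1 and 1 (7 under median-of-ratios scaling, with 2 below -1), and megakaryocyte markers at 516 TPM and 47.5 TPM, which was mostly Pf4 (505 and 38.4 TPM), a gene also known in macrophages. Lymphoid (14.9 and 8.50 TPM), erythroid (6.41 and 3.27 TPM), stromal (22.3 and 38.7 TPM) and mast cell and basophil markers (6.15 and 1.11 TPM) were low, and Cd3e, Cd3d and Fcer1a had no value in either library. The part of these cells in the values of the family was not tested. In bulk RNA, fewer cells of a type and less RNA per cell cannot be told apart, for Bcl2l1 and Bid as for any other gene.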

How the data were processed

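Per the labels and the methods of the study, total RNA was made into libraries with a NEB Next Ultra RNA kit, and the authors trimmed adaptors (Trim Galore), mapped paired reads to mm10 (GRCm38) by HISAT2, and ran StringTie on GENCODE vM27. The deposited tables hold coverage (mean read depth per base, not scaled for library size), FPKM and TPM, and the authors' TPM sums to 1000000 over the assembled loci of each library alone. Entries with gene names carry GRCm39 positions and were used only as an alternative. Read counts and strandedness are not given in the sources used here.

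Assembled loci (19422 in M, 19922 in MR) were given to the GENCODE vM21 gene with the most exon bases, at least 50, on their strand, a strandless locus to the gene with the most on either strand, which covered 95.4% and 96.9% of TPM. A locus that also held 50% or more of the exonic sequence of a second coding gene was called shared. TPM was summed per gene, and log2 ratios used a pseudocount of 1 and genes that reached a TPM of 1 in either library. For a gene with several loci in a library this sum can count a transcript in more than 1 of them. Read pairs were approximated from FPKM, the shortest coding transcript and aligned bases, at 300 bases a pair. For Bcl2l11 that transcript has 672 bases, whereas its locus in M held 4086 exon bases of the gene. The numbers of pairs can thus be too low by a factor that differs between genes. Intervals are exact Poisson for levels and Wilson for ratios, at 95%. The assignment was tested on simulated data, where 98.29% of 5000 loci went to their gene and 192 of 192 changed genes were recovered. Each simulated gene had an intact locus on its own strand. The simulation therefore does not cover split, strandless, opposite-strand or merged loci such as those at Mcl1 and Bcl2l11. Python 3.11.15, numpy 2.4.6, pandas 2.3.3 and scipy 1.17.1 were used. The 10 genes were given by name, all were described, and from the lists the genes past a log2 ratio of 1 and fixed partners of the 10 were named. The members and lists were chosen with earlier results of these data known. Of 14 alternatives, those on the other strand and on Acoxl were chosen after seeing the data.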

Additional observations from a re-analysis of the deposited data

Results flagged for a closer look

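Loci that lay within Bcl2l11, Bid or Bax but were given to no gene carried reads in MR, and are outside the values above. Within Bcl2l11 they summed to 40.8 TPM in MR and 38.3 TPM in M, nearly all of it on the minus strand over the 3′ end of the gene. Within Bid they were at 7.71 TPM in MR and 2.84 TPM in M, and within Bax at 1.17 TPM in MR and 0.873 TPM in M. There is 1 library per condition, and these differences were not tested.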

How the results depend on the processing

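No paired analysis was possible because there was 1 library per condition, and no library could be left out for the same reason. The number of genes of the family above 1, which was 4, was 2 with FPKM, 2 with coverage per aligned Gb (Bcl2 is not tested in either) and 1 with the entries with gene names, over 2 genes. The number below -1, which was 2, was 0 with those entries and 4 at a log2 threshold of 0.5. Over all genes, 2858 were above 1 and 1781 below -1. These counts were 1793 and 1100 among genes with an own locus in both libraries, 775 and 500 with the entries with gene names, 1599 and 981 at a TPM of at least 10, and 4894 and 3024 at the threshold of 0.5. In each of these fewer genes were tested, except with the lower threshold. The entries with gene names, whose positions are of another build, also reversed Bcl2 (-0.058), Bcl2l1 (0.027) and Bcl2l11 (-0.030). The median of the 10 genes ranged from -0.52 without strandless loci, or with the longest locus of each gene, to 0.32 with the entries with gene names. Median-of-ratios scaling over 11265 genes moved the median of all genes from 0.21 to 0.03. It lowered the ratios of genes with a level well above 1 TPM in MR by about 0.18, those of lower genes by less, and left those at 0 in MR as they were. Depth limits Bcl2 most, at about 14 read pairs.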
